A study of Mus musculus with 6 samples.

Results

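The genes described here build and police the attachment of chromosomes to the mitotic spindle. They were chosen by name, as 25 listed genes for the spindle checkpoint, mitotic kinases, outer kinetochore and anaphase machinery, plus every gene of the table whose symbol is Cenp followed by a letter and any digits. Of the listed genes 21 had a row and 4 (Incenp, Ndc80, Knstrn and Kif11) had none under those symbols and were not analysed here under them. With 17 Cenp genes this gave 38 of the 18312 genes in the table.

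The series addressed which mRNAs the RNA-binding proteins Brf1 (Zfp36l1) and Brf2 (Zfp36l2) hold in mouse embryonic stem cells. Its 6 libraries came from wild-type E14 cells of the 129/Ola background, kept in 15% fetal bovine serum with 1000 U/ml of the cytokine LIF. They form 3 groups of 2, namely total RNA with no antibody, RNA recovered with an anti-Brf1/2 antibody, and RNA recovered with rabbit IgG as the non-specific control. The analysed table holds a single profile of 22625281 read counts, and no column of it names a library or a group. Each value below is therefore the authors' single value with no replicate, no comparison between the groups was made, and a level may reflect expression, recovery by an antibody, or both.

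During mitosis, the centromere-specific histone Cenpa marks where each kinetochore assembles, an inner network of Cenp proteins sits on it, and the Ndc80 complex reaches out to grip microtubules. Unattached kinetochores recruit the checkpoint proteins of the Mad and Bub families and the kinase Ttk, which hold back Cdc20, the activator of the anaphase-promoting complex. Once all chromosomes are attached, Cdc20 drives destruction of securin (Pttg1), which frees separase (Espl1) to part the sister chromatids. Embryonic stem cells divide fast, with a short G1 phase, so a culture holds many cells past G1.

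Because Brf1 and Brf2 bind AU-rich elements, the 3′ untranslated regions of these genes were searched for TATTTAT, the core of the element. Each gene was matched to the GENCODE M21 coding transcript nearest in length to its model in the table, and 35 of the 38 had 1 within 10% of that length. TATTTAT was present in 7 of these 35 regions (20%), with 1 site in each. Of all 12542 genes matched in the same way 24.6% held it, and of the 7669 with at least 1 FPKM (the authors' unit, reads scaled by transcript length and by the total count) 28.3% did. The regions of the mitotic genes were also shorter, with a median of 428 nt against 789 nt for all genes and 972 nt for those with at least 1 FPKM. The 7 sites are shown because they are places in the length-matched transcripts where the study's proteins could be looked for. TATTTAT is in capitals with 11 bases of transcript on either side, read 5′ to 3′.

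Mad2l1: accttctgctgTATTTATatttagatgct
Bub3: gtaccatgcctTATTTATtatatctgctc
Plk4: tgtatattttaTATTTATttttatagcac
Nuf2: catagcagcctTATTTATattagcctgaa
Cenpf: ttgaactttaaTATTTATaatcccttttc
Cenpe: gaactgttaatTATTTATttttatacatt
Cenpi: gtgtatgtatgTATTTATgtatatattca

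These sites lie in the last exon of each transcript. On GRCm38, which is another build than the mm9 of the table, the printed stretches are chr6:66540629-66540657 on the plus strand for Mad2l1, chr7:131571278-131571306 on the plus strand for Bub3, chr3:40816790-40816818 on the plus strand for Plk4, chr1:169498036-169498064 on the minus strand for Nuf2, chr1:189640922-189640950 on the minus strand for Cenpf, chr3:135273469-135273497 on the plus strand for Cenpe and chrX:134362568-134362596 on the plus strand for Cenpi. The Bub3 and Cenpe sites extend to TTATTTATT, the nonamer form of the element, which 2 of 35 regions held (5.71%, against 6.29% of all genes). Genes with a site and genes without overlapped in level. Mad2l1 (115 FPKM) and Bub3 (48.5) held a site, Plk4, Nuf2, Cenpf, Cenpe and Cenpi lay between 13.1 and 28.7 FPKM, and the median was 26.3 FPKM with a site and 35.0 among the 28 genes without. Over all matched genes the medians were 4.54 FPKM with a site and 2.31 without. Among those with at least 1 FPKM they were 8.80 and 9.96. Bub1, Fzr1 and Cenpb had no transcript within 10% of the model length and were left out; the nearest transcripts of Bub1 and Cenpb, at other lengths, hold TATTTAT too. The count depends on region length. With the longest annotated region of each gene 10 of 35 held TATTTAT (28.6%), with 5 sites in Bub3, 4 in Mad2l1 and 3 in Birc5. Of all genes 26.7% held it on that measure, and of those with at least 1 FPKM 30.1% did. In bins of region length the genes fell on both sides of the background, with 0 of 9 from 50 to 250 nt (3.64% of all genes), 2 of 10 from 250 to 500 nt (10.1%), 2 of 10 from 500 to 1000 nt (19.4%), 3 of 5 from 1000 to 2000 nt (32.9%) and 0 of 1 above that (53.8%).

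All 38 genes had at least 1 FPKM, a level that 56.0% of the genes in the table reached. At least 5 FPKM was reached by 37 of them (38.3% of all genes), at least 10 by 33 (27.5%) and at least 50 by 12 (6.84%). The median was 27.5 FPKM, against 1.94 for all genes and 9.66 for genes with at least 1 FPKM. In the order of all 18312 genes they ran from rank 478 (Mad2l1) to rank 7272 (Cenpj), and 18 of 38 were in the upper 10%. Together they held 104662 counts, 0.463% of the total, and no gene had fewer than 244. The authors' bounds on an FPKM are 2 square roots of the count to either side, so they cover counting error only. For these genes they were a median of 4.29% wide on each side, from 2.10% for Bub1b to 12.8% for Cenpm.

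**Figure D1:**
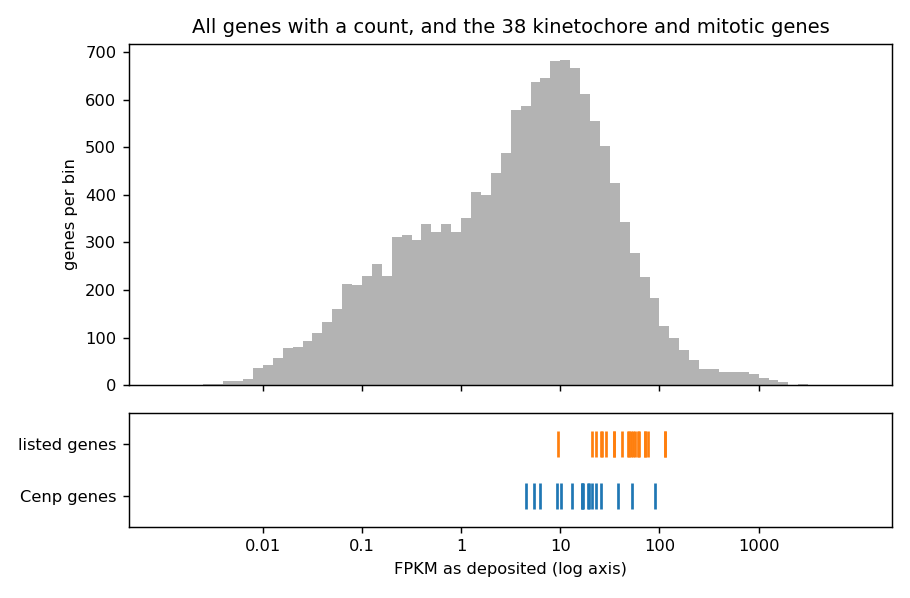
Upper panel, number of genes per bin of FPKM (log axis) for the genes of the table with a count. Lower panel, each vertical mark is 1 of the 21 listed genes or 17 Cenp genes; all lie above 4 FPKM, and the listed genes (median 49.5) sit to the right of most Cenp genes (median 17.1).

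The listed regulators were higher than most of the Cenp genes. Their median was 49.5 FPKM (9.43 to 115), against 17.1 for the Cenp genes (4.53 to 89.4), and 10 of 21 listed genes but 2 of 17 Cenp genes (Cenpa and Cenpw) reached 50 FPKM. On the annotated length of each model in place of the effective length that the authors' tool estimated, the medians were 59.8 and 22.9, and 14 listed genes but 1 Cenp gene (Cenpa) reached 50, since Cenpw fell to 26.6.

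The spindle checkpoint genes spanned the range of the listed set. Mad2l1, whose protein folds onto Cdc20 to form the inhibitory complex, had 115 FPKM (bounds 111 to 118, 4362 counts). The kinase Bub1 had 72.1 FPKM (70.2 to 74.0), and Bub1b, which encodes BubR1, another part of the inhibitory complex, had 62.0 (60.7 to 63.3) from 9032 counts, the most of any of the 38 genes. Bub3, the adaptor that brings both to kinetochores, had 48.5 FPKM (46.9 to 50.1), and the kinase Ttk (Mps1), which starts checkpoint signalling, had 35.1 (33.8 to 36.4). Mad1l1, the kinetochore template on which Mad2l1 is converted, was the lowest of the listed genes at 9.43 FPKM (8.89 to 9.96). The bounds of these 6 genes do not overlap. Mad2l1 was 12.2 times as high as its partner Mad1l1 (95% counting interval 11.4 to 13.0), and 5.41 times (5.08 to 5.77) on the model length. The order of Bub1 and Bub1b turned on the model length, at 58.6 against 109 FPKM.

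Among the anaphase regulators, Cdc20 had 113 FPKM (110.2 to 115.5, 7346 counts), and its bounds overlap those of Mad2l1. The 2 genes were level as deposited (ratio of Mad2l1 to Cdc20 1.02, 0.979 to 1.06), but on the model length Cdc20 was the highest of all 38 at 182 FPKM and the ratio was 0.614 (0.591 to 0.638). Fzr1 (Cdh1), the other activator of the anaphase-promoting complex, which acts at mitotic exit and in G1, had 25.7 FPKM (24.6 to 26.8). Cdc20 exceeded it 4.40-fold (4.19 to 4.62), and 4.35-fold on the model length. Securin, Pttg1, had 61.3 FPKM (57.3 to 65.2), and separase, Espl1, which it inhibits, had 20.99 (20.4 to 21.6). The ratio of inhibitor to enzyme was 2.92 (2.72 to 3.13) as deposited and 1.75 (1.64 to 1.88) on the model length.

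The mitotic kinases and Tpx2 spanned 1.98-fold as deposited and 3.10-fold on the model length. Plk1, the polo kinase that acts at centrosomes, kinetochores and the midbody, had 51.2 FPKM (49.6 to 52.7), and Aurka, the Aurora kinase of spindle poles, had 49.5 (47.7 to 51.3), with overlapping bounds. On the model length Plk1 and Aurka were apart, at 88.7 and 71.1 FPKM. Tpx2, which targets Aurka to spindle microtubules and activates it, had 56.9 FPKM (55.6 to 58.1), so activator and kinase differed 1.15-fold (1.101 to 1.197). Plk4, the kinase that licenses centriole duplication, was lower at 28.7 FPKM (27.5 to 29.9). In the chromosomal passenger complex, which corrects wrong attachments, survivin (Birc5) had 71.6 FPKM (68.7 to 74.5), borealin (Cdca8) 54.2 (52.4 to 56.1) and the kinase Aurkb 22.8 (21.6 to 23.9). Aurkb thus had the lowest FPKM of the 3 measured subunits. Birc5 was 3.14 times (2.95 to 3.35) and Cdca8 2.38 times (2.24 to 2.53) as high, with the same order on the model length. Aurka exceeded Aurkb 2.18-fold (2.05 to 2.31), and 2.06-fold on the model length.

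Paralogs and genes of related function outside the set were also in the table. Aurkc, the Aurora kinase of germ cells, had 1.89 FPKM (1.41 to 2.36) from 63 counts, and Aurkb was 12.1 times as high (9.37 to 15.8). Plk2 had 16.9 FPKM, Plk3 5.54 and Plk5 2.31, and Plk1 exceeded Plk2 3.04-fold (2.87 to 3.21). Plk4 was higher than Plk2 as deposited, but on the model length they were level at 28.6 and 28.3 FPKM. Mad2l2, a Mad2 relative with a role in DNA repair, had 7.35 FPKM, and Mad2l1 was 15.6 times as high (13.9 to 17.6), and 10.1 times (8.98 to 11.4) on the model length. Gsg2, the histone kinase haspin, had 10.1 FPKM, and Sass6, a centriole assembly protein in the pathway of Plk4, had 8.27. The table records no reads shared between genes, so how reads common to close relatives were counted cannot be seen in it.

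In the Ndc80 complex, which couples kinetochores to microtubule ends, Spc25 had 75.9 FPKM (72.7 to 79.1), Spc24 42.1 (40.1 to 44.1) and Nuf2 26.3 (25.1 to 27.6). These subunits are needed in equal numbers in the complex, but protein amounts are not in these data. Spc25 and Nuf2 differed 2.88-fold in FPKM (2.71 to 3.07), and 2.18-fold (2.05 to 2.33) on the model length. Spc24 and Spc25, which pair with each other, differed 1.802-fold (1.69 to 1.92), which fell to 1.22-fold (1.14 to 1.29) on the model length. The kinesin Kif23, which bundles midzone microtubules for cytokinesis, had 35.0 FPKM (33.9 to 36.1). Knstrn, the partner of astrin at kinetochores, is listed in the table under the older symbol D2Ertd750e at 16.0 FPKM (15.2 to 16.8), and was not counted among the 38.

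**Figure D2:**
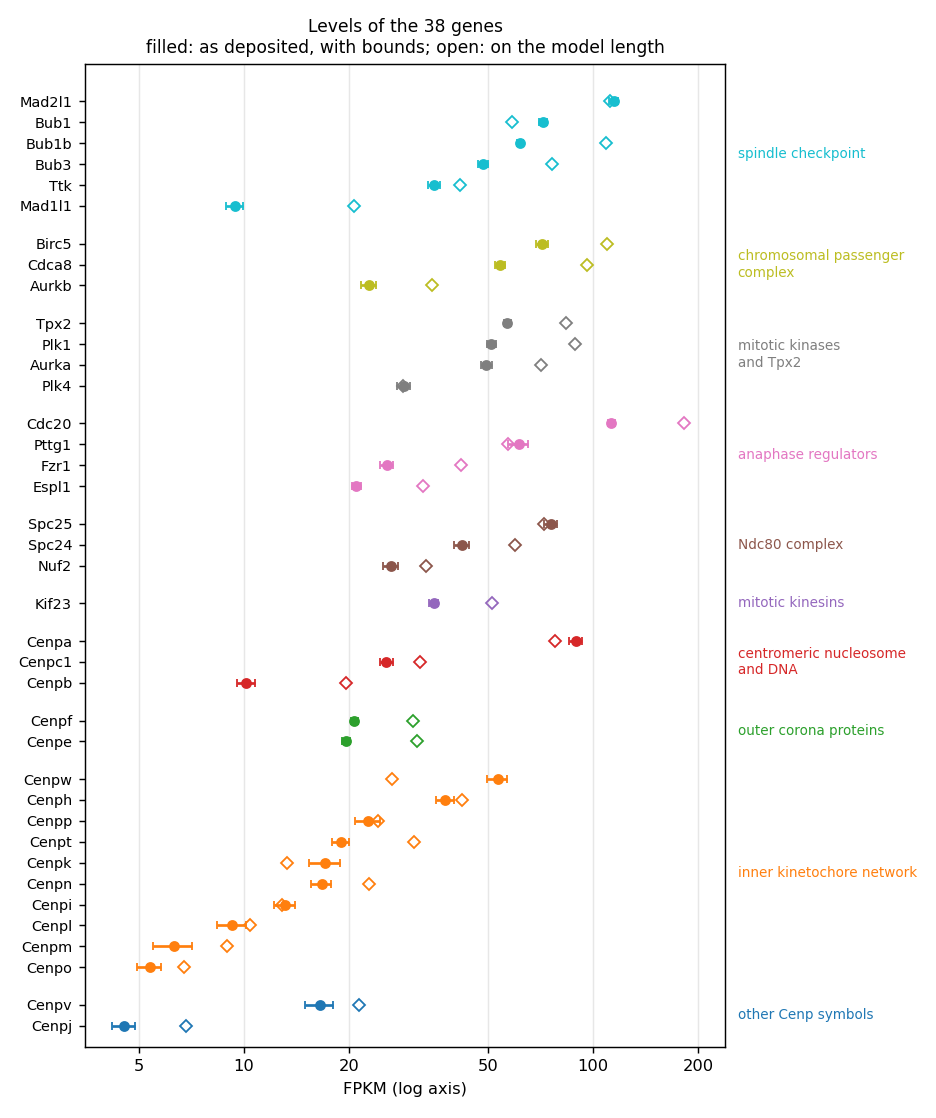
FPKM (log axis) of each of the 38 genes, grouped by role. Filled points are the deposited values with the authors' bounds and open diamonds the values on the model length. Mad2l1 and Cdc20 lead at 115 and 113, Mad1l1 is the lowest listed gene at 9.43, and most diamonds lie to the right of their points.

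At the centromere itself, the histone variant Cenpa had 89.4 FPKM (85.7 to 93.1, 2350 counts), the highest of the Cenp genes. Cenpc1, which links centromeric nucleosomes to the outer kinetochore, had 25.6 FPKM (24.6 to 26.7), and Cenpb, which binds a DNA box in centromeric repeats, had 10.2 (9.57 to 10.7). Cenpa was 3.49 times as high as Cenpc1 (3.29 to 3.70) and 6.52 times as high as its loading chaperone Hjurp (6.18 to 6.88), which had 13.7 FPKM. On the model length these ratios were 2.43 and 4.66.

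The 10 genes of the inner kinetochore network had a median of 16.9 FPKM and spanned a 9.93-fold range, 6.28-fold on the model length. Cenpw, a histone-fold protein that pairs with Cenpt, had 53.4 FPKM (49.8 to 56.9) and Cenpt 19.0 (17.9 to 20.05). That pair depends on the length used. The ratio of Cenpw to Cenpt was 2.81 (2.58 to 3.07) as deposited and 0.863 (0.791 to 0.941) on the model length, since the table gives Cenpw an effective length of 753 nt for a model of 1512 nt. Cenph, Cenpi, Cenpk and Cenpm, which act together in the network, had 37.8, 13.1, 17.1 and 6.30 FPKM, so Cenph exceeded Cenpm 5.997-fold (5.22 to 6.91), and 4.71-fold on the model length. Of the pair Cenpn and Cenpl, Cenpn had 16.7 FPKM (15.6 to 17.8) and Cenpl 9.26 (8.36 to 10.2). Of the pair Cenpp and Cenpo, Cenpp had 22.7 FPKM (20.8 to 24.6) and Cenpo 5.37 (4.96 to 5.79), a 4.22-fold difference (3.77 to 4.73). Further network proteins are in the table under older symbols, at 29.4 FPKM for Cenpx (Stra13), 15.8 for Cenps (Apitd1), 9.54 for Cenpu (Mlf1ip) and 6.82 for Cenpr (Itgb3bp).

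The large proteins of the outer corona were close to each other. Cenpf had 20.7 FPKM (20.2 to 21.2, 7667 counts) and the kinetochore motor Cenpe 19.6 (19.1 to 20.1, 5539 counts). Their ratio was 1.05 (1.02 to 1.09) as deposited and 0.972 (0.939 to 1.01) on the model length, so which is higher was not settled. Of the remaining Cenp symbols, Cenpj, which acts in centriole elongation and not in the kinetochore, was the lowest of the 38 genes as deposited at 4.53 FPKM (4.18 to 4.88), while on the model length Cenpo was lowest at 6.72 against 6.83 for Cenpj, with overlapping bounds. Cenpv had 16.5 (15.0 to 17.96).

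Neighbours in the order of levels were often not apart. Of the 37 adjacent pairs 25 had overlapping bounds, among them Mad2l1 with Cdc20, Bub1 with Birc5, Tpx2 with Cdca8, and Ttk with Kif23. Clear steps followed Cdc20, Cenpa, Birc5 and Bub3 as deposited, and the bounds did not overlap there. These ties and steps depend on the length used. On the model length, with bounds of 2 square roots of the count, Cenpa (74.5 to 80.9) overlapped Spc25 (69.6 to 75.7). Birc5 (105 to 114) overlapped Bub1b (107 to 111). The steps from Cdc20 to Cenpa and from Bub3 to Spc24 remained. The pairs named above as overlapping were apart there, for example Bub1 at 58.6 and Birc5 at 110 FPKM.

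The levels move with the effective length, and that moved with base composition. The ratio of effective to model length had a median of 1.42 in the 38 genes and 1.27 in all genes. The GC medians lay the other way. The 35 matched genes had a median GC content of 47.3% and a median ratio of 1.42. All 12542 matched genes had medians of 50.4% and 1.31. Within the set, Cenpw (0.498) and Cenpk (0.776) had the lowest ratios, and the lowest GC contents of the 35 matched transcripts, 35.8% and 36.1%. At the other end Mad1l1 had a ratio of 2.19 at 56.8% GC. Across the 35 genes Spearman's rho between GC content and ratio was 0.684, and across all 12542 matched genes it was 0.666. Genes of 1 table share its depth and are not independent replicates, so this is a description. On the model length 28 of the 38 genes were higher than their bounds, 6 lower and 4 within them, and 15 moved by more than 1.5-fold. The counting bounds do not include this shift, which was downward for Cenpw, from 53.4 to 26.6 FPKM, and upward for Mad1l1, from 9.43 to 20.6.

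**Figure D3:**
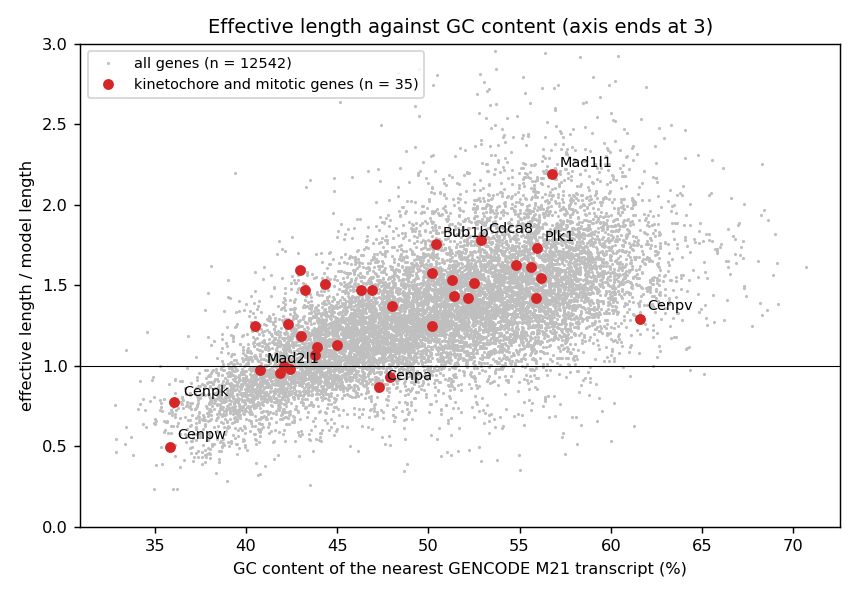
Ratio of effective to model length against GC content (%) of the nearest transcript, for 12542 genes (grey) and the 35 matched genes of the set (red). The red points follow the grey cloud, from Cenpw at 0.498 to Mad1l1 at 2.19; 11 other genes lie above the end of the axis at 3.

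Mitotic genes are often controlled through the cell cycle homology region, a promoter element with the core TTTGAA that is bound by the DREAM and MuvB complexes, together with CCAAT boxes bound by the factor NF-Y. Promoters of 35 of the 38 genes were found in the RefSeq table (GRCm38.p6, 250 bases before to 50 after each start), and Aurkb, Spc24 and Tpx2 were not among them. TTTGAA, searched on both strands, was in the window of 15 of the 35 genes (42.9%), and in 17.2% of all 13506 genes with a window. From 100 bases before the start to 50 after it, 14 of 35 held it (40%), against 7.17% of all genes and 5.69% of the 7659 with at least 1 FPKM. CCAAT, also on both strands, was in a window of 23 of 35 genes (65.7%, against 42.4% of all genes). All 14 genes with the core near the start also held CCAAT, a combination found in 3.15% of all genes. The related core TTTAAA, a palindrome, was in 9 of 35 (25.7%, against 13.5%). In Cdca8 and Cenpw the TTTGAA core and a CCAAT box overlap by 1 base.

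The windows of 4 genes are shown, 3 high genes with the core near the start and Mad2l1, which was level with Cdc20 as deposited and had none of these motifs in the window. Capitals mark the cell cycle cores and the CCAAT box on either strand, and the sequences are those of RefSeq on GRCm38.p6, read 5′ to 3′ on the strand of the gene.

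Cdc20 (chr4:118437294-118437593, minus strand): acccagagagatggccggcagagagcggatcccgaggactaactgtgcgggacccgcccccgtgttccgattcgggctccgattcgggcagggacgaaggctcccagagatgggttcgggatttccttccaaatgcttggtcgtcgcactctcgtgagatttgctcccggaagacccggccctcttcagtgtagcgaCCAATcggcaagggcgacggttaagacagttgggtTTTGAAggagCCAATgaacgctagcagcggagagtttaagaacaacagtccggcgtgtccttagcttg
Cenpa (chr5:30666636-30666935, plus strand): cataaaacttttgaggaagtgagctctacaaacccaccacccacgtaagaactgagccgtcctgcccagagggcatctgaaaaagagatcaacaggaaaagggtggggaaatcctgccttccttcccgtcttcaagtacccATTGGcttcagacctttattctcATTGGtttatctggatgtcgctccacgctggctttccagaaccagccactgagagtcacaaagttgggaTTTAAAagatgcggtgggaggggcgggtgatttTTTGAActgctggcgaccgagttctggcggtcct
Plk1 (chr7:122159185-122159484, plus strand): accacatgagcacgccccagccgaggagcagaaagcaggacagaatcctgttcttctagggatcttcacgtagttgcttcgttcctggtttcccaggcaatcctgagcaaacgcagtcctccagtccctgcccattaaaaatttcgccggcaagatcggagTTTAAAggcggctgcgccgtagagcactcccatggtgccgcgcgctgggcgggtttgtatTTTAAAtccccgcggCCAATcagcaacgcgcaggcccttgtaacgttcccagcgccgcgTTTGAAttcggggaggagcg
Mad2l1 (chr6:66534971-66535270, plus strand): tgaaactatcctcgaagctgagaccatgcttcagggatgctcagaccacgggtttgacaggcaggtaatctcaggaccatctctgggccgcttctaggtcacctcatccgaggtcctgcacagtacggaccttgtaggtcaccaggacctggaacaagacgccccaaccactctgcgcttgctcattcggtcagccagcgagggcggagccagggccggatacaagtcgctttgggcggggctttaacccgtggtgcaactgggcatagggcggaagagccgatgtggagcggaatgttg

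The Cdc20 core begins 18 bases before the start, and the Cenpa and Plk1 cores begin 16 and 30 bases after it. The other genes with the core near the start were Spc25, Bub1b, Cdca8, Cenpw, Aurka, Bub3, Ttk, Kif23, Espl1, Cenpf and Cenpn. As deposited, these 14 genes had a median of 50.3 FPKM (16.7 to 113). The 21 without had a median of 19.6 (4.53 to 115). Medians on the model length were not computed for this split, which uses a window added after the levels were seen. The ranges overlap, and Mad2l1, Bub1, Birc5 and Pttg1 were high without the core in this window. Most of the 14 were listed genes, whose median was 49.5 FPKM against 17.1 for the Cenp genes. Whether level goes with the core apart from that split was not tested. Of the 17 Cenp genes Cenpa, Cenpf, Cenpn and Cenpw held the core near the start. The other Cenp genes did not, and they ran from Cenpj (4.53 FPKM) to Cenph (37.8). Some of them thus lay above the holders Cenpf (20.7) and Cenpn (16.7), and some below. A match describes letters in a window and does not show that a factor is bound there.

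**Figure D4:**
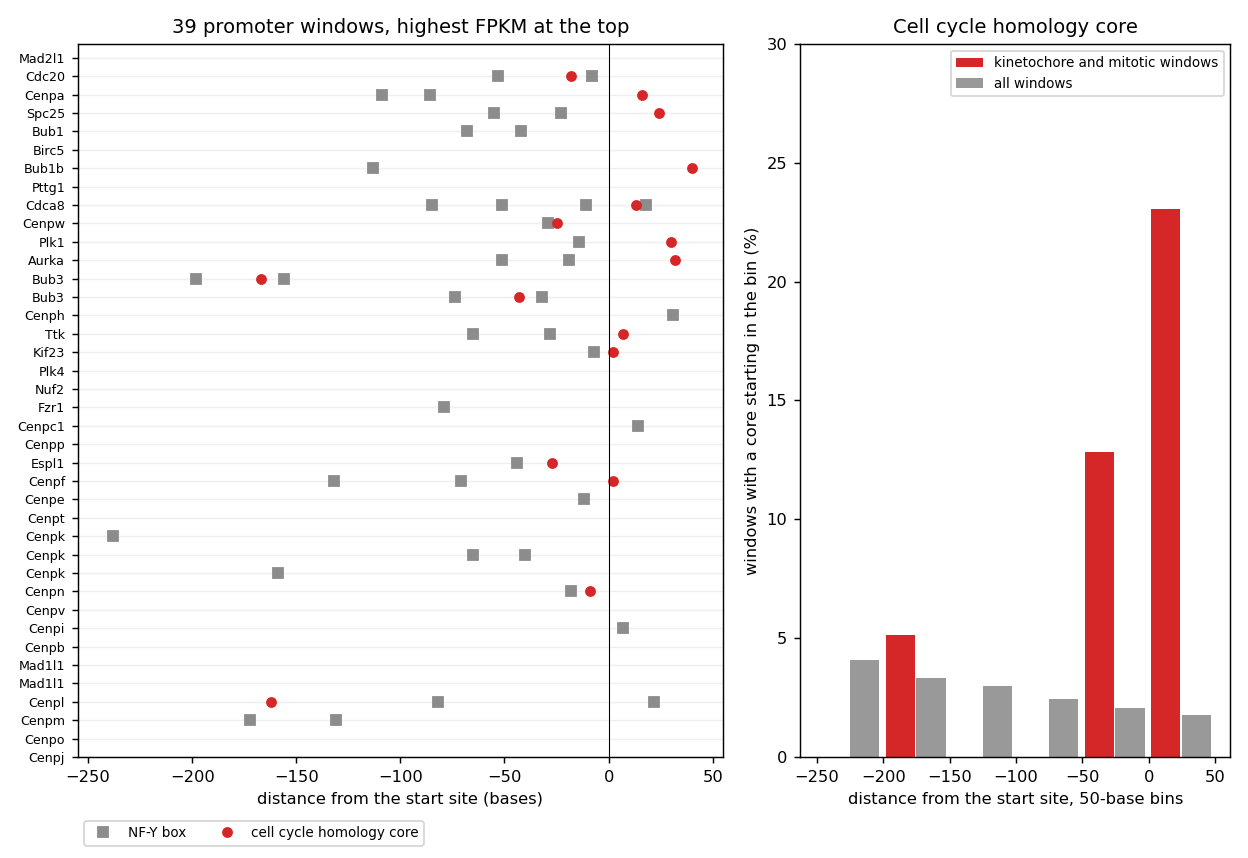
Left, position of the cell cycle homology core (red) and the NF-Y box (grey) in the 39 promoter windows of 35 genes, by distance from the start site in bases, with the highest FPKM at the top. Right, share of windows with a core starting in each 50-base bin, for these windows (red) and all windows (grey); the red bars reach 12.8% and 23.1% in the bins on either side of the start, against 2.06% and 1.75%.

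Other genes of the pathway, from a list of non-members, were at similar levels. Each of the 52 genes found in the table reached 1 FPKM, as did 56.0% of all genes, and their median level was 26.6. A further 9 symbols of the list had no row and were not analysed here. Cyclin B1 (Ccnb1), which activates the mitotic kinase Cdk1, was highest at 253 FPKM, and Cdk1 had 60.4. Ube2c, the ubiquitin-conjugating enzyme of the anaphase-promoting complex, had 165 FPKM, while the measured core subunits ran from 9.12 (Anapc11) to 56.9 (Cdc26). In the layer that joins the inner kinetochore to the Ndc80 complex, Zwint had 44.1 FPKM, Pmf1 39.8, Casc5 (Knl1) 18.1, Mis12 16.5, Dsn1 12.0 and Nsl1 10.3. Of the corona complex that holds Mad1l1 and Mad2l1 at kinetochores, Zwilch had 33.6 FPKM, Zw10 11.8 and Kntc1 10.9. Trip13, which takes the Mad2l1 complex apart, had 29.4 FPKM. The lowest was Cit, the citron kinase of cytokinesis, at 3.47. Among the 42 of these genes with a promoter window, 17 (40.5%) held TTTGAA near the start. The share was 7.17% of all genes and 5.69% of those with at least 1 FPKM.

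The labelled cell type was checked in the same table. All 9 embryonic stem cell markers had at least 5 FPKM (13.9 for Klf4 to 605 for Pou5f1). Of 5 fibroblast or feeder markers with a row, only Thy1 reached 1 FPKM, at 3.74, and Postn had 0 counts. None of 4 primitive endoderm markers with a row did, with the highest, Foxa2, at 0.603. Of 4 neural markers 3 did, with Tubb3 at 22.9, Nes at 20.1 and Pax6 at 2.38. Which of the 3 groups these levels belong to is not recorded in the table.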

How the data were processed

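Sequencing was done on 6 RNA libraries from E14 mouse embryonic stem cells. The mm9 build and the tools eXpress 1.1.1, Bowtie 1.1.2 and CASAVA 1.8.2 are named per the submitters' processing notes, with what each did and its options not given in the sources used. Read counts per gene model were deposited by the authors as total and as unique counts, equal in every row. The deposited estimated counts equal them too. FPKM with lower and upper bounds was deposited by the authors, and was checked to be the count per effective length and total count (within 0.1%). The 1 row that names no gene holds the total count and was left out.

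FPKM on the model length was computed from the same counts. Ratios between genes carry exact binomial 95% intervals of the 2 counts, which cover counting error only. No test was run, because no column names a library, and the planned comparison of groups was not made. Every gene found by the rule is described. Of the other pathway genes, the 2 highest and 2 lowest of each subgroup could be named; Cdk1, Casc5 and Mis12 and the genes under older symbols were added after their values were seen, as were the CCAAT motif and the promoter part near the start. Transcripts were matched by symbol (16793 of 18312 symbols, 91.7%), with at least 50 nt of 3′ untranslated region. Coordinates on GRCm38 and GRCm38.p6 come from GENCODE M21 and RefSeq. The genes and lists were chosen with earlier results of these data known. Calculations were tested on simulated counts and toy transcripts. The software was matplotlib 3.10.9, scipy 1.17.1, pandas 2.3.3, numpy 2.4.6 and Python 3.11.15.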

Additional observations from a re-analysis of the deposited data

How the results depend on the processing

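No paired analysis was possible because no deposited column names a library, and leave-one-out values could not be had for the same reason. With the model length, a threshold of 5 FPKM or a minimum of 10 counts, the number of genes detected stayed between 37 and 38 of 38. Of all genes in the table, 38.3% had at least 5 FPKM and 70.6% had at least 10 counts. The share of all genes on the model length was not computed. Of the other pathway genes 51 or 52 were detected with the model length or the threshold of 5. The median was 33.9 FPKM on the model length and 26.3 with Knstrn under its older symbol added. Estimated counts equal the total counts in every row, so using them could not change a level. Within role groups, 22 of 28 neighbouring pairs kept their order on the model length. The 6 that turned were Bub1 with Bub1b, Tpx2 with Plk1, Cenpf with Cenpe, Cenpw with Cenph, Cenpp with Cenpt, and Cenpk with Cenpn.

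The motif alternatives were chosen after seeing the data. ATTTA was in 20 of the 3′ untranslated regions (57.1%, against 61.4% of all genes), where TATTTAT was in 7, or 10 with the longest regions. In promoter windows TTTGAA was in 15 genes, 14 near the start, TTTAAA in 9 and CCAAT in 23. With 1 profile there is no spread over libraries, and depth limits the genes with the fewest counts most, at 12.8% on each side for Cenpm with 244 counts.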
